A study of Mus musculus with 22 samples.

Results

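Neurons and glia of the hippocampus were compared 24 h after kainate. The comparison holds the 6 mRNAseq libraries of kainate mice, 3 of NeuN+ nuclei (neurons) and 3 of NeuN- nuclei (glia), out of 11 mRNAseq libraries and 22 samples in the series, and their labels of treatment and sorted fraction define the groups. The mice were adult C57/BL6N males in which kainate, an agonist of ionotropic glutamate receptors, was injected above the right hippocampus, and those that went on to convulsive seizures were kept. The tissue is the left hippocampus, contralateral to the injection and not itself injected. The left hippocampi of 8 kainate mice were pooled into 3 samples, and an antibody against NeuN then split the nuclei of each pool, so that the NeuN+ and the NeuN- library with the same replicate number come from the same animals. Pools held unequal numbers of mice. Sham mice of the same sex and strain had saline injected in place of kainate, and they gave 3 NeuN+ and 2 NeuN- libraries, which served here to estimate the spread and for the test of whether a difference between the fractions changed with kainate. Each pool is 1 replicate, and p-values measure the spread between the paired pools, 3 of kainate and 2 of sham mice.

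NeuN is the product of Rbfox3, a splicing regulator found in the nuclei of most mature neurons, and sorting nuclei on it splits brain tissue into neurons and everything else. The NeuN- fraction of the hippocampus holds nuclei of oligodendrocytes and their precursors, astrocytes, microglia and cells of the blood vessels, together with neurons that stain weakly. RNA from nuclei is rich in young transcripts and in RNAs that stay in the nucleus. After a seizure, neurons switch on immediate early genes, whose products are transcription factors and synaptic regulators, while astrocytes and microglia respond with cytokines, chemokines and structural proteins. In such bulk libraries fewer nuclei of a type and less RNA per nucleus cannot be told apart.

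The 6 libraries held 18471055 to 45428465 counted reads. Levels are CPM, the counts scaled to library size with a TMM factor for library composition, and a fold change is given as log2 of NeuN+ over NeuN-, so that positive values are higher in neurons. Kainate glia replicate 2 had an input of only about 0.05 ng RNA and 15 cycles of PCR, against 1 ng and 10 cycles for the other 5 kainate libraries. Kainate glia replicate 3 stood apart from the other kainate libraries, with 25.9% of the tested genes below 1 CPM against 36.4% to 49.4% in the others and a TMM factor of 1.60 against 0.725 to 1.19. Sham glia replicate 3, in the same fit, was like it, with 27.3% and 1.68.

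The labels of the fractions were checked on cell type markers first. Rbfox3, the gene of the sorting antigen, was at 219, 272 and 171 CPM in neurons and 23.8, 49.2 and 39.2 CPM in glia, a separation that the sort itself made. Mbp, which encodes myelin basic protein of oligodendrocytes, went the other way, with 81.0, 121 and 115 CPM in neurons and 2502, 1761 and 640.3 CPM in glia (log2 fold change -3.77, SE 0.51, FDR = 0.000454). The lowest glia value lay above the highest neuron value. Cx3cr1, the fractalkine receptor of microglia, was at 4.27, 5.48 and 6.80 CPM in neurons and 285, 222 and 106 CPM in glia (log2 fold change -5.11, SE 0.55, FDR = 0.000183). Aldh1l1, a folate enzyme of astrocytes, was at 4.62, 11.2 and 11.9 CPM in neurons and 53.8, 31.0 and 20.3 CPM in glia (log2 fold change -1.86, SE 0.58, FDR = 0.0429), and its fractions did not overlap although they were much closer. Pdgfrb, the growth factor receptor of pericytes, was at 2.70, 7.26 and 8.51 CPM in neurons and 38.9, 23.7 and 12 CPM in glia (log2 fold change -1.93, SE 0.62, FDR = 0.0476). Pecam1, an adhesion molecule of endothelium, was at 0.854, 3.06 and 4.28 CPM in neurons and 4.45, 6.04 and 9.50 CPM in glia (log2 fold change -1.43, SE 0.39, FDR = 0.0229), low in all libraries. Below, numbers in brackets after a gene give the kainate replicates whose removal, 1 at a time, ended its call, and a robust fit is one in which genes of unusual spread are pulled less toward the common trend. The calls of Aldh1l1 (glia 1 or 2, neurons 1 or 2), Pdgfrb (glia 1 or 2, neurons 1 or 2) and Pecam1 (glia 1, 2 or 3, neurons 1 or 2) were lost without the kainate library named, at FDR 0.0508 to 0.180. In the unpaired fit Pecam1 did not pass (FDR 0.335) and in a robust fit neither did Aldh1l1 or Pdgfrb (FDR 0.184 to 0.189).

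**Figure D1:**
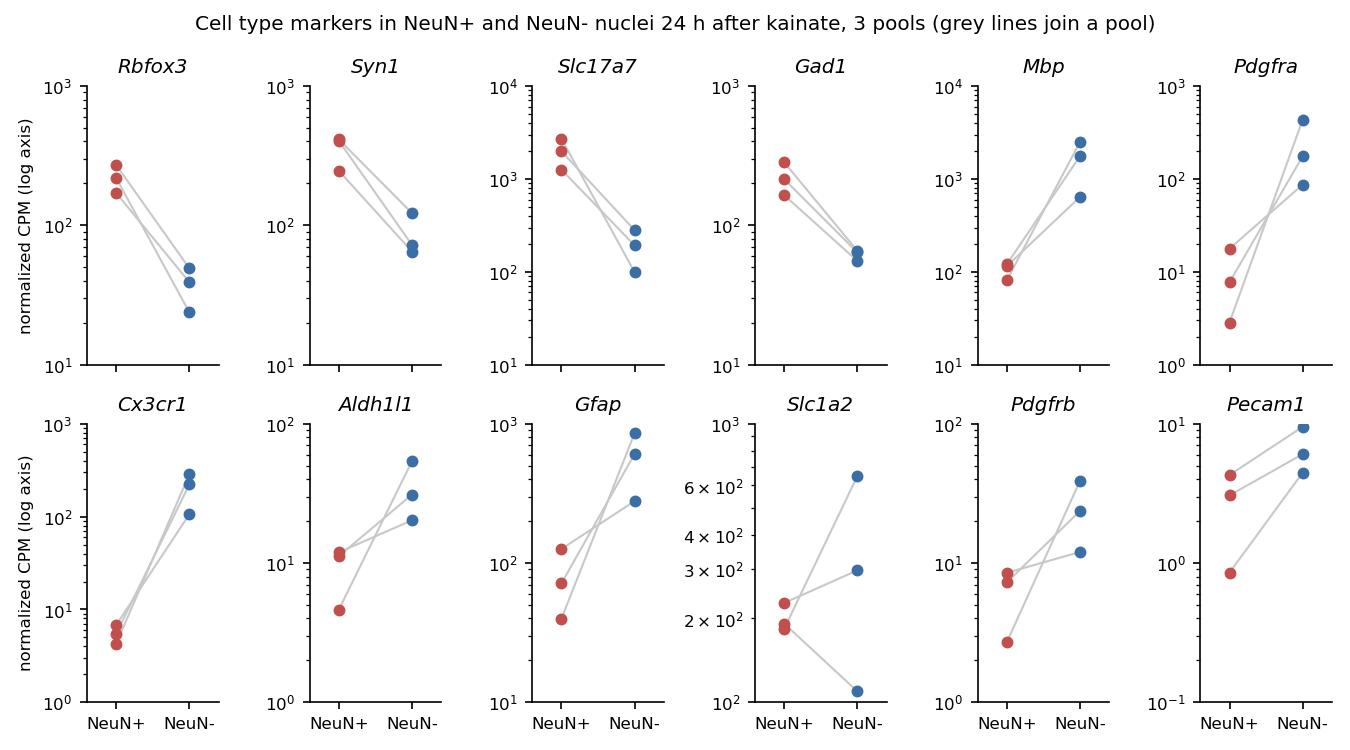
Normalized CPM (log axis) of 12 cell type markers in NeuN+ (red) and NeuN- (blue) nuclei after kainate, 1 point per library, with grey lines joining the fractions of a pool. Neuronal markers in the first row fall from left to right in all 3 pools, glial markers rise, and Slc1a2 goes down in 1 pool and up in 2.

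The marker ratios between the fractions differed from pool to pool. Summed over 16 oligodendrocyte markers, the NeuN- library exceeded the NeuN+ library of its pool 123, 29.6 and 10.9-fold in replicates 1, 2 and 3. The same ratio was 40.0, 14.2 and 4.60 for 13 markers of oligodendrocyte precursors, 32.3, 17.3 and 9.70 for 19 microglia markers and 7.03, 3.14 and 1.22 for 15 astrocyte markers. In the opposite direction, 15 pan-neuronal markers were 14.3, 7.30 and 6.05-fold higher in NeuN+ nuclei, and 12 markers of excitatory neurons 8.36, 4.46 and 4.22-fold. Each of these ratios was largest in replicate 1 and smallest in replicate 3, whereas for 18 markers of inhibitory neurons NeuN+ over NeuN- was 0.910, 1.57 and 1.75. A few abundant RNAs weigh on such sums. Without the member of the highest mean level in each list, an alternative chosen after the values were seen, the NeuN- library was 78.9, 25.1 and 9.60-fold higher for oligodendrocytes, 35.2, 12.8 and 4.34 for precursors, 32.4, 18.3 and 10.6 for microglia and 6.25, 2.64 and 1.03 for astrocytes. In the same way NeuN+ over NeuN- was 6.26, 4.43 and 4.04 for pan-neuronal markers without Meg3, a noncoding RNA, 3.97, 2.99 and 2.87 for excitatory markers without Slc17a7 and 2.43, 2.34 and 2.20 for inhibitory markers. The cause of this order and its part in the fold changes of single genes were not tested. Pan-neuronal transcripts in the NeuN- libraries summed to 1558, 2216 and 2304 CPM, and to 1054, 1238 and 974 CPM without Meg3, so neuronal RNA was present in every glia library.

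Among 40714 genes tested in 1 model with the pool as a block, 5306 (13%) were higher in NeuN+ and 3660 (8.99%) higher in NeuN- nuclei when edgeR's quasi-likelihood test was held to a false discovery rate (FDR) under 0.05. Where 1 or 2 members of a gene list were called in 1 direction, their share was near or below these percentages, or somewhat above 8.99% for metabotropic receptors and nuclear long noncoding RNAs in glia, and such calls say little of a list. The order of the counts turned with the newer quasi-likelihood method (5814 and 6620), with no filter on low counts (4486 and 4599) and at an FDR below 0.25 (8706 and 11366). The median log2 fold change was 1.39 over the former and -1.93 over the latter. A difference of 16-fold or more was seen for 8 genes higher in NeuN+ and 248 higher in NeuN- nuclei. The direction of the calls moved with expression level. Of 4360 genes with a mean log2 CPM above 6, 46.8% were higher in neurons and 10.4% higher in glia, whereas of 9740 genes between 0 and 2 these shares were 3.53% and 10.8%. The median log2 fold change was 0.60 in the first class, -0.61 in the second and -0.41 over all genes. The pairing weighed heavily on the counts, which were 2465 and 1643 without it. Without kainate glia replicate 3, they were 4241 and 2687, and without both low-input libraries 3787 and 2699. The count of genes higher in NeuN+ was 3227 without kainate glia replicate 1, 2910 without kainate glia replicate 2 and 2851 without kainate neurons replicate 2. That of genes higher in NeuN- was 1665 without kainate glia replicate 2, 2280 and 1712 without kainate neurons replicate 1 or 2, and 5540 without sham neurons replicate 1.

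**Figure D2:**
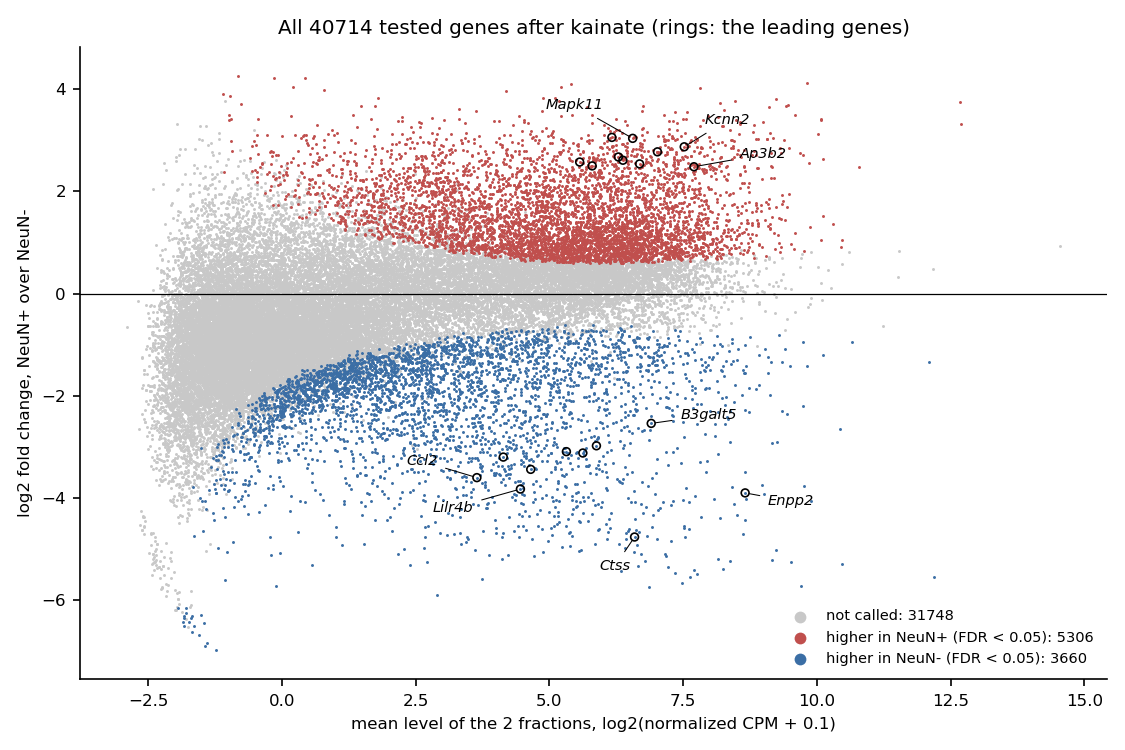
Each of the 40714 tested genes by its mean level in both fractions after kainate (x axis, log2 of normalized CPM + 0.1) and its log2 fold change of NeuN+ over NeuN- (y axis), coloured by call. Calls higher in NeuN+ (red, 5306) crowd to the right and reach 4.27 at most, while calls higher in NeuN- (blue, 3660) extend to lower levels and to larger folds; rings mark the 20 leading genes.

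The 10 leading genes of neurons were those with the smallest p among called genes of at least 10 CPM with separated fractions. Kcnn2, a small-conductance calcium-activated potassium channel, was at 431, 292 and 249 CPM in neurons and 50.3, 39.7 and 39.6 CPM in glia (log2 fold change 2.88, SE 0.23, FDR = 0.000174). Mapk11, which encodes the p38-beta kinase, was at 151, 156 and 194 CPM in neurons and 13.5, 19.0 and 31.4 CPM in glia (log2 fold change 3.04, SE 0.24, FDR = 0.000174). In both genes every neuron library lay far above every glia library. Pcsk2, the prohormone convertase that matures neuropeptides, was at 244, 181 and 104 CPM in neurons and 38.3, 30.4 and 20.0 CPM in glia (log2 fold change 2.54, SE 0.21, FDR = 0.000174). The chromatin remodeller Chd5 was at 162, 139.7 and 104 CPM in neurons and 19.4, 25.3 and 18.3 CPM in glia (log2 fold change 2.68, SE 0.22, FDR = 0.000174). Shisa7, an auxiliary subunit of neurotransmitter receptors, was at 300.1, 243 and 139 CPM in neurons and 31.7, 39.3 and 25.3 CPM in glia (log2 fold change 2.78, SE 0.24, FDR = 0.000174), and its neuron values were the highest in replicate 1 and the lowest in replicate 3. The others were the small GTPase Rab36, the adaptor Rusc1, the chemokine gene Ccl27a, Ap3b2, a subunit of the neuronal AP-3 coat, and Dlgap3, a scaffold of the postsynaptic density. Their log2 fold changes ran from 2.48 for Ap3b2 to 3.06 for Ccl27a. Of the exon bases of Rusc1, 25.8% are shared with a predicted gene on the same strand, so its count is less certain.

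Of the 10 leading genes of glia, several belong to microglia and other macrophages. Ctss, the lysosomal protease cathepsin S, was at 7.26, 4.46 and 4.82 CPM in neurons and 376, 95.1 and 90.5 CPM in glia (log2 fold change -4.77, SE 0.43, FDR = 0.000174). Ccl2, a chemokine that draws monocytes, was at 2.42, 1.53 and 1.58 CPM in neurons and 31.7, 15.6 and 21.6 CPM in glia (log2 fold change -3.61, SE 0.31, FDR = 0.000174), low in every neuron library. Apbb1ip and Fyb, adaptors of integrin signalling in blood-derived cells, had log2 fold changes of -3.45 and -3.20, and Lilr4b, a leukocyte immunoglobulin-like receptor, -3.83. Lilr4b has a near-identical neighbour, Lilrb4a, and reads may be split between them. Enpp2, which encodes autotaxin and is high in oligodendrocytes, was at 53.6, 49.7 and 28.4 CPM in neurons and 1348, 656 and 291 CPM in glia (log2 fold change -3.91, SE 0.35, FDR = 0.000174), with the highest glia value in replicate 1. Also among them were the class I myosin Myo1e (-2.98), the galactosyltransferase B3galt5 (-2.54) and the phosphatase Cdc14a (-3.10).

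The starts of the genes in each direction also differed in sequence. RefSeq gives a window of 300 bases around the transcription start (250 before it and 50 after, build GRCm38.p6) for 19477 of the tested genes. The median number of CpG dinucleotides was 21 in the 3508 windows of genes higher in NeuN+, 11 in the 2350 of genes higher in NeuN- and 8 in those not called. Among genes that reached 10 CPM in a kainate fraction, these medians were 21, 17 and 22, so the gap between the directions was smaller there. In all, 8 motifs were searched on both strands as exact letters. GAGGAAGT, the core bound by the macrophage factor PU.1, was in 4.98% of the NeuN- and 1.88% of the NeuN+ windows, against 3.16% of all tested. TGACGTCA, the cyclic AMP response element, went the other way, with 1.53%, 3.11% and 2.30%. TTCAGCACC, part of the element bound by the neuronal repressor REST, was in 0.298%, 0.570% and 0.349%, and TTCCNGGAA, the site of STAT factors, in 0.979%, 1.05% and 1.15%. The other 4 were TGANTCA, the site of AP-1 factors, in 8.30%, 4.19% and 7.29%, TATAAA, the TATA box, in 11.2%, 6.21% and 12.6%, CAGCTG, an E-box, in 17.8%, 16.1% and 15.8%, and ACAAAG, a SOX motif, in 17.7%, 12.7% and 17.2%. Among genes that reached 10 CPM the shares in the same order were 4.50%, 1.82% and 2.70% for PU.1, 1.79%, 3.18% and 3.36% for the cyclic AMP response element, 0.429%, 0.576% and 0.392% for the REST motif, 1.07%, 1.00% and 1.11% for STAT, 6.36%, 4.21% and 4.64% for AP-1, 7.93%, 5.91% and 6.48% for the TATA box, 18.7%, 15.9% and 15.2% for the E-box and 15.4%, 12.4% and 12.9% for SOX. At that level the NeuN+ share of the cyclic AMP response element was no longer above that of all tested genes. For STAT the order of the directions turned. The NeuN- shares of the REST motif and of the TATA box there lay above those of all tested genes. These shares are descriptions without a test, and a match is not a site shown to be in use. The 8 motifs do not contain one another.

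To show such windows, 2 are given for each side and 1 for an astrocyte gene, with each match to the PU.1, cyclic AMP, REST and STAT motifs in capitals and matches to the other 4 not marked. They are those of Scg2 (chr1:79439977-79440276, minus strand), which encodes secretogranin II, and Syn1 (chrX:20920869-20921168, minus strand), which encodes the vesicle protein synapsin I, both with the cyclic AMP response element and the REST motif, Apbb1ip (chr2:22774077-22774376, plus strand) and Ctss (chr3:95526536-95526835, plus strand) with the PU.1 motif written on the opposite strand, and Gfap (chr11:102897151-102897450, minus strand) with the STAT motif. Scg2 was at 939, 488 and 573 CPM in neurons and 93.5, 82.3 and 132 CPM in glia. Syn1 was at 404, 414 and 246 CPM in neurons and 72.4, 122 and 64.9 CPM in glia. Gfap, the filament protein of astrocytes, was at 39.9, 71.5 and 126 CPM in neurons and 857, 608 and 278 CPM in glia, and none of the 3 overlapped between fractions. In Scg2 the response element begins at position -68 from the start and the REST motif, there on the opposite strand, at -7, and in Syn1 they begin at -159 and -232, where 0 is the first transcribed base. The match begins at -2 in Ctss, -2 in Gfap and 5 in Apbb1ip. The windows of Scg2 and Syn1 hold 16 and 33 CpG, and those of Apbb1ip, Ctss and Gfap 13, 5 and 3. A robust fit ended the call of Gfap (FDR 0.0573).
Scg2: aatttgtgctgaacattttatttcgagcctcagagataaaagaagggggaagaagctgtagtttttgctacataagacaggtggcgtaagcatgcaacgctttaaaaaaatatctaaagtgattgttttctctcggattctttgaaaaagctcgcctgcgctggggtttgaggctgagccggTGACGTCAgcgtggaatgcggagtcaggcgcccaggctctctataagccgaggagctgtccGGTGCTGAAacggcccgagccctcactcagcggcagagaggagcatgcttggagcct
Syn1: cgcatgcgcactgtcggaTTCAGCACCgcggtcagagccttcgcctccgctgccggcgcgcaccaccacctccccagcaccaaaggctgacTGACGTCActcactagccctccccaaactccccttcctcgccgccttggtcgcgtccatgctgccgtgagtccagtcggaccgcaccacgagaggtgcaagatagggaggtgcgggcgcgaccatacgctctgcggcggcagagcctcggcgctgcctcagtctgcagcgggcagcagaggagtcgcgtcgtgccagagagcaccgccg
Apbb1ip: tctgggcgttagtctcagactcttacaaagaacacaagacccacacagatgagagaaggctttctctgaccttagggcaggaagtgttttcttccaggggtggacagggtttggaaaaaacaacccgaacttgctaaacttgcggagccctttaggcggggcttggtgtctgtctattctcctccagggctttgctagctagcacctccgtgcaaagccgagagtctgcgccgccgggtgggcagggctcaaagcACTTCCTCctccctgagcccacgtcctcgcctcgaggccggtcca
Ctss: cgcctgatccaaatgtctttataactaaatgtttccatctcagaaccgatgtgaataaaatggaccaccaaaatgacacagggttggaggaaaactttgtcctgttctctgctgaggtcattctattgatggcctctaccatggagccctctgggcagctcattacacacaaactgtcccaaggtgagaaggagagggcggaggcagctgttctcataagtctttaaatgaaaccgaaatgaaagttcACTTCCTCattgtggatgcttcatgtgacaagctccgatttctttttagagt
Gfap: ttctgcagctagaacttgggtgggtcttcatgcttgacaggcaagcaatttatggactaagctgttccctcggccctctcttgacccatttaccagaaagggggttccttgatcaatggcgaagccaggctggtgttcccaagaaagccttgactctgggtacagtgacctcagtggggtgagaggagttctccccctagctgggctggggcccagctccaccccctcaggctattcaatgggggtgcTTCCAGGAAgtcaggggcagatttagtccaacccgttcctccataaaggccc

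By gene type, 20.3% of 20945 protein-coding genes were higher in NeuN+ and 13.3% higher in NeuN- nuclei. Of 4302 long intergenic noncoding RNAs the shares were 3.53% and 4.32%, and of 5785 processed pseudogenes, whose reads may come from their parent genes, 2.20% and 2.71%. Protein-coding genes higher in neurons spanned a median of 29.3 kb of genome, those higher in glia 24.1 kb and those not called 15.1 kb.

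Among 14 nuclear long noncoding RNAs, 9 were higher in neurons and 2 in glia (median log2 fold change 1.19). Meg3, an imprinted RNA of the Dlk1 locus, was among the most abundant RNAs of the neuron libraries, with 15636, 10704 and 9990.0 CPM in neurons and 504, 978 and 1329.8 CPM in glia (log2 fold change 3.76, SE 0.46, FDR = 0.000292). Snhg11 (3.33), Miat (3.29), Mirg (2.74) and Rian (2.70) followed, with 30.4% of the exon bases of Miat shared with predicted genes. Neat1, the scaffold of paraspeckles, went the other way, with 58.5, 84.8 and 240.3 CPM in neurons and 1576, 2259 and 1507 CPM in glia (log2 fold change -4.07, SE 0.64, FDR = 0.00112). Malat1, of nuclear speckles, was abundant in both fractions, and its log2 fold change of 0.47 did not pass the test. Pvt1 (-0.89) was the other RNA higher in glia. Without the kainate library in brackets the call of Pvt1 (glia 1, 2 or 3, neurons 1, 2 or 3) did not stand (FDR 0.0520 to 0.219). Pvt1 did not pass without the pairing (FDR 0.223).

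Genes of transmitter release were higher in neurons almost throughout, 26 of 29, with a median log2 fold change of 2.05 against -0.41 over all genes. Slc17a7, the vesicular glutamate transporter VGLUT1, was at 2703, 1985 and 1258 CPM in neurons and 98.7, 280.3 and 192 CPM in glia (log2 fold change 3.41, SE 0.46, FDR = 0.000435). Sv2b, a glycoprotein of synaptic vesicles, was at 601, 396 and 379 CPM in neurons and 21.6, 50.7 and 55.4 CPM in glia (log2 fold change 3.49, SE 0.41, FDR = 0.000234), and Unc13a, which primes vesicles, had a log2 fold change of 3.01. Syt1, the calcium sensor of release, reached 2.85. The 3 members that did not pass were Syt2 (0.65), Sv2a (0.36) and Unc13c (-0.52). Of 17 genes of the postsynaptic density 16 were higher in neurons (median 2.23), among them the scaffold Shank1 (3.22), the kinase subunit Camk2b (3.12) and Dlgap2 (3.09). Nlgn2, the neuroligin of inhibitory synapses, was at 68.2, 43.1 and 28.2 CPM in neurons and 51.0, 29.7 and 15.4 CPM in glia and did not pass. Leaving out the library in brackets brought a call, higher in neurons, for Nlgn2 (sham glia 1 or 3, sham neurons 1 or 3) (FDR 0.0392 to 0.0397).

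Kainate acts on ionotropic glutamate receptors, and 15 of 17 genes of their subunits were higher in neurons (median 1.62). The NMDA receptor subunits Grin2a (3.39), Grin1 (3.37) and Grin2b (3.02) and the AMPA receptor subunit Gria1 (3.01) led, and Grin1 was at 892, 668 and 508 CPM in neurons and 44.5, 78.5 and 77.5 CPM in glia. Of the subunits of kainate receptors, Grik4 (2.32) and Grik5 (1.97) differed most, Grik1 (1.33) less, and Grik2 (0.82) and Grik3 (0.85) least. Grin2c was the 1 member higher in glia, with 2.92, 2.14 and 3.24 CPM in neurons and 56.1, 22.8 and 6.49 CPM in glia (log2 fold change -2.92, SE 0.71, FDR = 0.0128). Of 7 metabotropic receptors, 6 were higher in neurons, among them Grm2 (2.87), and Grm3, which is also a receptor of astrocytes, was higher in glia, at 16.7, 27.2 and 9.91 CPM in neurons and 156, 89.8 and 21.4 CPM in glia (log2 fold change -2.01, SE 0.36, FDR = 0.00252). Of 14 GABA receptor genes 13 were higher in neurons (median 2.56), among them Gabra5 (2.91). Gabrg1 was at 23.5, 12.4 and 5.45 CPM in neurons and 35.4, 13.7 and 8.23 CPM in glia and did not pass. Among these genes the calls of Grik2 (glia 1 or 2, neurons 1 or 2), Grik3 (glia 1 or 2, neurons 1 or 2) and Grin2c (neurons 2) rested on the kainate library named (FDR 0.0507 to 0.256). Dropping the pairing ended the calls of Grik2 and Grik3 (FDR 0.140 to 0.189) and a robust fit that of Grin2c (FDR 0.155).

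Of 28 potassium channel genes 22 were higher in neurons (median 2.08) and 4 in glia. Kcnj9, a subunit of the G protein-gated inward rectifier, was at 144, 172 and 89.5 CPM in neurons and 9.22, 22.6 and 19.5 CPM in glia (log2 fold change 3.02, SE 0.34, FDR = 0.000202), and its relative Kcnj3 (2.78) lay close to it. The 4 on the glial side were Kcnj10, the Kir4.1 channel with which astrocytes and oligodendrocytes clear potassium, its partner Kcnj16 (-3.79), and the voltage-gated Kcna6 (-2.02) and Kcna1. Predicted genes on the other strand share 39.6% of the exon bases of Kcna6 and 31.1% of those of Kcnj3, so these counts are less certain. Kcnj10 was at 2.21, 2.19 and 2.43 CPM in neurons and 158, 57.5 and 23.9 CPM in glia (log2 fold change -4.69, SE 0.64, FDR = 0.000489), with all neuron libraries close to 0. Kcna1, whose product sits beside the nodes of myelinated axons, was at 319, 294 and 234 CPM in neurons and 979.7, 700.4 and 391 CPM in glia (log2 fold change -1.20, SE 0.29, FDR = 0.0113). Of 23 sodium, calcium and HCN channel genes 19 were higher in neurons (median 2.34), among them the calcium channels Cacna1e (2.98) and Cacna1g (2.81). Hcn2 (-0.91) and Hcn4 (-0.87) were higher in glia, a share of the list near the 8.99% over all tested genes. Leaving out 1 kainate library ended the calls of Kcna1 (glia 1 or 2, neurons 1 or 2), Hcn2 (glia 1 or 2, neurons 1 or 2) and Hcn4 (glia 1, 2 or 3, neurons 1, 2 or 3), at FDR 0.0755 to 0.337. In the unpaired fit Kcna1, Hcn2 and Hcn4 did not pass (FDR 0.120 to 0.365) and in a robust fit neither did Kcnj16 (FDR 0.166).

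Neuropeptide and granin genes were higher in neurons in 18 of 23 cases (median 2.33). The granins Chga (2.98) and Scg2 (2.67), cholecystokinin (Cck, 2.73), thyrotropin-releasing hormone (Trh, 2.94) and galanin (Gal, 2.59) had the larger differences. Gal was low, at 30.1, 20.0 and 20.9 CPM in neurons and 3.57, 2.88 and 5.45 CPM in glia, and Trh was at 165, 84.9 and 214 CPM in neurons and 12.3, 15.0 and 35.1 CPM in glia. Npy, the peptide of a class of interneurons that also appears in granule cells after seizures, was at 126, 60.9 and 59.9 CPM in neurons and 17.8, 9.91 and 16.6 CPM in glia (log2 fold change 2.43, SE 0.27, FDR = 0.000191). Ucn2, urocortin 2, was the 1 member higher in glia, with 0.142, 0.408 and 0.811 CPM in neurons and 11.6, 9.33 and 4.36 CPM in glia (log2 fold change -4.12, SE 0.66, FDR = 0.00117). Of 12 markers of excitatory neurons 9 were higher in NeuN+ nuclei, and of 18 markers of inhibitory neurons 13. Reln, the secreted protein of Cajal-Retzius cells and interneurons, was higher in glia, at 74.5, 97.9 and 96.3 CPM in neurons and 314, 212 and 146 CPM in glia. Of 18 markers of hippocampal subfields 10 were higher in neurons. Prox1, a transcription factor of dentate granule cells, was at 147, 167 and 145 CPM in neurons and 254, 232 and 133 CPM in glia and did not pass. Without the pairing 8 inhibitory markers were called in neurons and 1 in glia. The call of Reln (glia 1 or 2, neurons 1 or 2) was lost without the kainate library named, at FDR 0.0604 to 0.244.

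On the glial side, oligodendrocyte markers had the largest median difference of the 41 gene lists. All 16 oligodendrocyte markers and all 13 markers of precursors were higher in NeuN- nuclei, with medians of -5.21 and -3.89. Mag, the myelin-associated glycoprotein, was at 9.46, 28.8 and 50.2 CPM in neurons and 2981, 1331 and 603 CPM in glia (log2 fold change -5.72, SE 0.99, FDR = 0.00186). The lineage's transcription factor Sox10 was at 4.62, 18.0 and 24.7 CPM in neurons and 821, 579 and 262 CPM in glia. A second factor, Olig2, was at 0.640, 6.01 and 11.8 CPM in neurons and 297, 185 and 75.3 CPM in glia. In the neuron libraries all 3 were lowest in replicate 1. Pdgfra, the growth factor receptor of precursors, had a log2 fold change of -4.57, and Gpr17, of cells committed to differentiation, -4.60. In each of these genes the NeuN- library of replicate 1 was the highest and that of replicate 3 the lowest. Of 16 myelin genes 15 were higher in glia. Omg, made by neurons as well, was at 155, 94.2 and 45.6 CPM in neurons and 197, 79.5 and 27.1 CPM in glia and did not pass. A robust fit left 7 oligodendrocyte, 4 precursor and 9 myelin genes called. A robust fit ended the calls of Mag, Sox10, Olig2, Pdgfra and Gpr17 (FDR 0.0723 to 0.151).

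Microglia genes followed. Of 19 markers 18 were higher in NeuN- nuclei (median -4.36), and Aif1 (-1.49), at most 5.39 CPM in any kainate library, was not called. The homeostatic markers Tmem119 (-4.90), P2ry12 (-4.26) and Siglech (-4.36) stood beside the complement chains C1qa, C1qb and C1qc (-4.65, -4.67 and -4.62). Genes that activated microglia express were called in glia in 20 of 23 cases (median -3.74). Tnf, a leading inflammatory cytokine, was at 0.0711, 0.153 and 0.585 CPM in neurons and 8.65, 7.87 and 8.94 CPM in glia (log2 fold change -5.10, SE 0.74, FDR = 0.000656), so its neuron libraries were at or near 0. Cd14, a co-receptor for bacterial and injury signals, was at 2.77, 1.86 and 3.92 CPM in neurons and 124, 40.8 and 81.9 CPM in glia (log2 fold change -4.75, SE 0.47, FDR = 0.000174). Msr1, a scavenger receptor, was at 0.711, 1.33 and 2.25 CPM in neurons and 35.4, 27.1 and 27.4 CPM in glia (log2 fold change -4.43, SE 0.43, FDR = 0.000174). The 3 genes were far apart in every pool. Apoe, the lipid carrier that astrocytes make too, had 45.7, 40.3 and 53.0 CPM in neurons and 2124, 512 and 229 CPM in glia. Gpnmb (-1.10), Lpl (-0.71) and Cst7 (-0.69), which are induced late in microglial disease states, did not pass. Of 17 complement genes 10 were higher in glia, with C4b at 4.20, 15.0 and 31.3 CPM in neurons and 813, 630.0 and 330.3 CPM in glia (log2 fold change -5.39, SE 0.80, FDR = 0.000790). Cd55, which shields cells from complement, was higher in neurons, at 12.5, 10.3 and 8.56 CPM in neurons and 2.45, 4.58 and 3.99 CPM in glia (log2 fold change 1.51, SE 0.40, FDR = 0.0192). C4b has a near-identical copy in the mouse genome. Without the kainate library in brackets the call of Cd55 (glia 1 or 2, neurons 1 or 2) did not stand (FDR 0.0522 to 0.0981). A robust fit ended the calls of Apoe and C4b (FDR 0.0617 to 0.0900). Not called here, Aif1 (glia 3, neurons 3, sham glia 1 or 3, sham neurons 1 or 3), Gpnmb (glia 3, neurons 3, sham glia 1 or 3, sham neurons 1 or 3) and Lpl (neurons 1) passed as higher in glia once the library in brackets was left out (FDR 0.00209 to 0.0380).

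Astrocyte genes separated less cleanly. Of 15 markers 10 were higher in NeuN- nuclei (median -2.16), among them the glutamate transporter Slc1a3, at 14.3, 20.1 and 45.4 CPM in neurons and 1013, 396 and 129 CPM in glia (log2 fold change -4.03, SE 0.88, FDR = 0.00710), the gap junction gene Gja1 (-3.70) and the water channel Aqp4 (-3.69). The other 5 were not called, among them Slc1a2 and Ntsr2. Slc1a2, the main glutamate transporter of astrocytes, was at 184, 227 and 192 CPM in neurons and 648, 298 and 109.6 CPM in glia (log2 fold change -0.46, SE 0.44, FDR = 0.470), and its fractions overlapped. The neurotensin receptor gene Ntsr2 was at 256, 248 and 154 CPM in neurons and 318, 123 and 48.2 CPM in glia, again overlapping. Of 16 genes of glutamate uptake, potassium buffering and coupling 13 were higher in glia (median -3.22). A robust fit left 1 of the astrocyte markers and 4 of these genes called. Genes that mark reactive astrocytes were higher in glia in 26 of 37 cases (median -2.13). The lowest value of this list, -4.75, was that of Cd14, given above among the microglia genes. Gfap is given above. Tm4sf1, a tetraspanin-like membrane protein, was at 5.26, 8.49 and 18.5 CPM in neurons and 169, 124 and 54.4 CPM in glia (log2 fold change -3.48, SE 0.55, FDR = 0.00106). The sphingosine-1-phosphate receptor gene S1pr3 was at 6.19, 10.3 and 18.3 CPM in neurons and 104, 123 and 47.1 CPM in glia (log2 fold change -3.02, SE 0.47, FDR = 0.00101). Cd44, the hyaluronan receptor, was at 18.4, 14.3 and 30.2 CPM in neurons and 167, 146 and 59.6 CPM in glia (log2 fold change -2.54, SE 0.45, FDR = 0.00233). The 3 genes did not overlap between fractions and were closest in replicate 3. The protease inhibitor gene Serpina3n was high in both fractions, at 205, 248 and 121 CPM in neurons and 1161, 665 and 389 CPM in glia (log2 fold change -1.87, SE 0.27, FDR = 0.000729). Ptgs2 (3.38) and Amigo2 (2.68) of this list were higher in neurons. Ptgs2 encodes cyclooxygenase 2, which neurons induce on activity, and Amigo2 is a cell adhesion gene that also marks a hippocampal subfield. A robust fit ended the calls of Slc1a3, Gja1, Aqp4 and Gfap (FDR 0.0573 to 0.179). Leaving out the library in brackets brought a call, higher in neurons, for Ntsr2 (glia 1, neurons 1) (FDR 0.0150 to 0.0232).

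Markers of vessel cells were low in both fractions. The 13 endothelial markers summed to 71.6, 95.3 and 124 CPM in the 3 glia libraries and 26.5, 50.0 and 60.2 CPM in the neuron libraries, and 9 of them were higher in glia (median -1.47). Cldn5, the tight junction claudin, was at 0.142, 0.357 and 2.03 CPM in neurons and 2.70, 3.70 and 3.20 CPM in glia. The number of endothelial calls came to 1 to 4 without kainate glia replicate 1 or 2 or kainate neurons replicate 1 or 2. Of 10 pericyte and smooth muscle markers 5 were higher in glia, a count that was 2 to 3 without kainate glia replicate 2 or kainate neurons replicate 1 or 2. Of 8 fibroblast markers 3 were higher in glia, of which Pdgfra is also the precursor marker above, and of 8 ependymal and choroid plexus markers 3, while Kl, the klotho gene, was higher in neurons (1.82). The 8 tested blood cell genes summed to 13.5, 20.8 and 20.0 CPM in NeuN+ and 14.5, 14.6 and 18.8 CPM in NeuN- nuclei, and 1 of them, Alas2 of haem synthesis, was called, in neurons (1.09), a share near the 13% over all tested genes. The ependymal count was 1 without kainate glia replicate 1 or kainate neurons replicate 1 and 5 without sham glia replicate 1 or 3 or sham neurons replicate 1. Among these genes the calls of Cldn5 (glia 2, neurons 1 or 2) and Alas2 (glia 1, 2 or 3, neurons 1, 2 or 3) rested on the kainate library named (FDR 0.0735 to 0.279). In the unpaired fit Cldn5 and Alas2 did not pass (FDR 0.186 to 0.338) and in a robust fit neither did Pdgfra (FDR 0.121).

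The immediate early genes split between the fractions. Of 24 genes, 10 were higher in neurons, 5 higher in glia and 9 not called, with a median log2 fold change of -0.05. Npas4, a transcription factor of activated neurons, was at 142, 110.4 and 33.9 CPM in neurons and 7.53, 15.1 and 6.97 CPM in glia (log2 fold change 3.11, SE 0.60, FDR = 0.00342). Nr4a2, an orphan nuclear receptor, was at 132, 199 and 20.0 CPM in neurons and 20.3, 29.8 and 10.3 CPM in glia (log2 fold change 2.16, SE 0.36, FDR = 0.00150). In both genes neuron replicate 3 was well below the other neuron libraries but still above every glia library except, for Nr4a2, replicates 1 and 2. Egr4 (2.47), Egr3 (2.02) and Nr4a1 (1.61) had the same direction. Egr1, in contrast, was at 326, 299 and 124 CPM in neurons and 355, 218 and 147 CPM in glia (log2 fold change 0.03, SE 0.23, FDR = 0.935), with overlapping fractions. Junb, a partner of FOS, was at 284, 212 and 493 CPM in neurons and 464, 273 and 314 CPM in glia and overlapped too. Fos, the best known of these genes, was higher in glia, with 134, 148 and 55.8 CPM in neurons and 419, 176 and 102 CPM in glia (log2 fold change -0.92, SE 0.30, FDR = 0.0480). Replicate 2 of neurons and that of glia were close in Fos, and the highest neuron value lay above the lowest glia value. Myc, which drives growth, was at 22.1, 23.9 and 22.8 CPM in neurons and 120.4, 94.8 and 75.2 CPM in glia (log2 fold change -2.05, SE 0.22, FDR = 0.000185). Its neuron libraries were nearly equal, and all glia libraries lay above them. Ier3, a stress-response gene, was at 9.39, 4.97 and 5.63 CPM in neurons and 63.8, 18.9 and 21.2 CPM in glia (log2 fold change -2.20, SE 0.29, FDR = 0.000395). Maff, a small MAF factor, was at 0.783, 0.739 and 1.04 CPM in neurons and 21.0, 4.68 and 3.88 CPM in glia (log2 fold change -3.03, SE 0.66, FDR = 0.00707). Atf3, a factor of cell stress, was at 16.7, 15.9 and 8.06 CPM in neurons and 76.9, 28.4 and 23 CPM in glia (log2 fold change -1.51, SE 0.30, FDR = 0.00449). In these 3 genes glia replicate 1 was the highest, and the fractions did not overlap. In sham mice the median over the 24 genes was 1.08, and Egr1, Junb and Fos had log2 fold changes of 2.21, 1.74 and 1.54 there. At an FDR below 0.05 the test of the difference between kainate and sham called 0 of the 24 genes by edgeR and 2 by DESeq2, and 6 had an unadjusted p below 0.05, against 0.00982%, 0.215% and 2.67% of all genes with a value in each test. The count higher in neurons came to 6 without kainate glia replicate 2 or kainate neurons replicate 2, and that higher in glia to 3 without kainate glia replicate 1. Leaving out 1 kainate library ended the calls of Fos (glia 1 or 3, neurons 1 or 3) and Atf3 (glia 1), at FDR 0.0736 to 0.469. Nr4a1 and Fos did not pass without the pairing (FDR 0.148 to 0.311) and in a robust fit neither did Npas4 (FDR 0.0846).

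**Figure D3:**
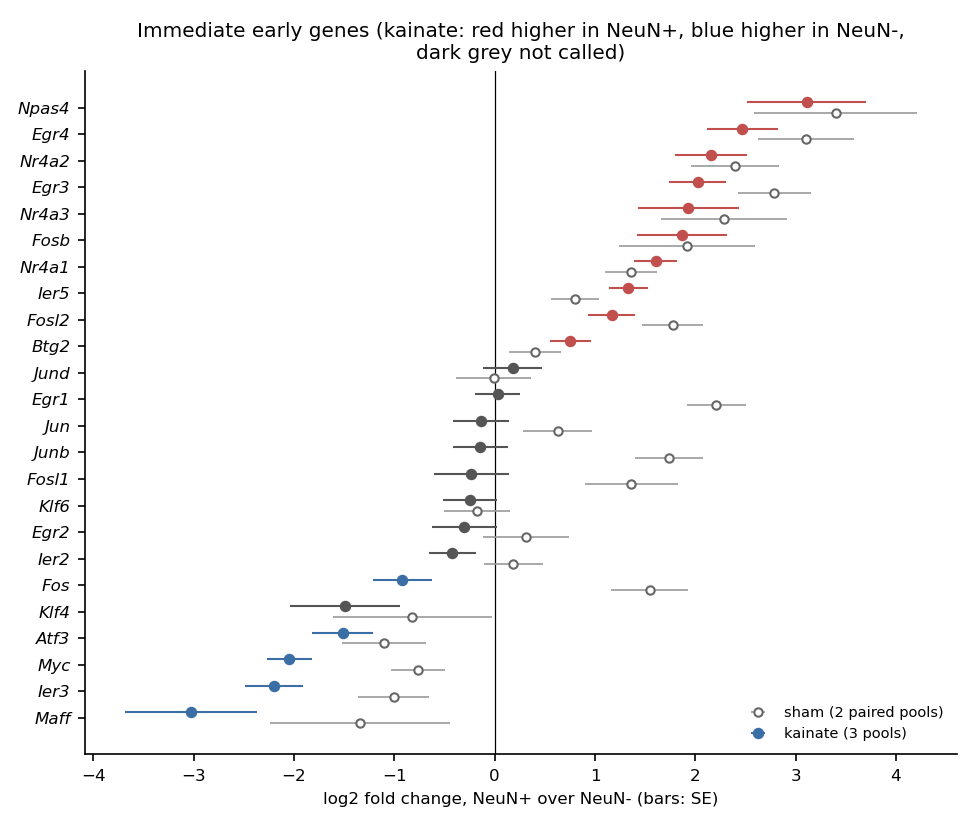
Log2 fold change of NeuN+ over NeuN- for the 24 immediate early genes after kainate (filled, 3 pools) and in sham mice (open, 2 pools with both fractions), with SE bars. After kainate the genes run from Npas4 at 3.11 to Maff at -3.03, and the open points of Egr1, Junb and Fos lie to the right of the filled ones.

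Effector genes regulated by neuronal activity were higher in neurons in 18 of 23 cases (median 2.16). Ptgs2 was at 552, 163 and 124 CPM in neurons and 23.8, 14.7 and 28.1 CPM in glia (log2 fold change 3.38, SE 0.49, FDR = 0.000665). Inhba, a subunit of activin, was at 295, 76.2 and 203 CPM in neurons and 16.1, 12.4 and 34.1 CPM in glia (log2 fold change 3.11, SE 0.34, FDR = 0.000184). Both varied several-fold between neuron libraries, without reaching the glia values. Nptx2, a pentraxin that gathers AMPA receptors, was at 537, 217 and 299 CPM in neurons and 37.2, 32.9 and 57.8 CPM in glia (log2 fold change 2.97, SE 0.30, FDR = 0.000174). The neurotrophin Bdnf was at 325, 135 and 123 CPM in neurons and 31.4, 24.5 and 29.3 CPM in glia (log2 fold change 2.63, SE 0.30, FDR = 0.000201). Arc, which regulates AMPA receptor uptake, was at 816, 573 and 567 CPM in neurons and 185, 125 and 127 CPM in glia (log2 fold change 2.16, SE 0.21, FDR = 0.000174). Their fractions did not overlap. On the glial side was Gadd45b, a stress sensor, at 74.1, 39.2 and 70.1 CPM in neurons and 525, 129 and 118 CPM in glia (log2 fold change -1.76, SE 0.34, FDR = 0.00357). The other was the phosphatase Dusp1, at 54.0, 54.6 and 48.7 CPM in neurons and 269.9, 113 and 83.7 CPM in glia (log2 fold change -1.37, SE 0.29, FDR = 0.00615), and in both glia replicate 1 was over the rest. The calls of Gadd45b (glia 1) and Dusp1 (glia 1) were lost without the kainate library named, at FDR 0.0652 to 0.190. Dropping the pairing ended the call of Dusp1 (FDR 0.103).

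Of 12 neurotrophins and receptors, 4 were higher in neurons, led by Bdnf and the neurotrophin-3 receptor Ntrk3 (2.07). Ntrk2, the receptor of BDNF, which astrocytes express in a truncated form, was at 541, 492 and 400.1 CPM in neurons and 446, 269 and 150.4 CPM in glia and did not pass. Ngfr was the 1 member higher in glia, a share near the 8.99% over all tested genes, at 0.356, 1.38 and 1.13 CPM in neurons and 3.01, 4.34 and 2.75 CPM in glia, a low level throughout. The number higher in neurons was 2 without kainate glia replicate 1 or 2 or kainate neurons replicate 2. Without the kainate library in brackets the call of Ngfr (glia 1 or 2, neurons 1 or 2) did not stand (FDR 0.0927 to 0.125). In the unpaired fit Ngfr did not pass (FDR 0.185). Not called here, Ntrk2 (neurons 1, sham glia 1 or 3, sham neurons 1 or 3) passed as higher in neurons once the library in brackets was left out (FDR 0.0152 to 0.0427).

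Of 21 chemokine genes and receptors 12 were higher in NeuN- nuclei (median -2.07). Besides Ccl2, the ligands Ccl3 (-4.99), Ccl4 (-4.81) and Ccl12 (-4.70) were strongly so, and Ccl12 was at 0.498, 1.12 and 1.58 CPM in neurons and 47.7, 18.9 and 25.3 CPM in glia. Cx3cl1, or fractalkine, was the reverse of its receptor Cx3cr1, at 1686, 1023 and 689 CPM in neurons and 145, 188 and 141 CPM in glia (log2 fold change 2.75, SE 0.31, FDR = 0.000204), and made up most of the sum of the chemokine list in neurons, which was 2.06, 1.71 and 1.61-fold that in glia. Ackr1 (2.06) was also higher in neurons, but 25.7% of its exon bases are shared with Cadm3. Of 33 genes of the interleukin-6 family, the JAK and STAT factors and the SOCS inhibitors, 16 were higher in glia and 3 in neurons (median -0.94). Socs3, the feedback inhibitor that STAT3 induces, was at 39.8, 78.4 and 91.1 CPM in neurons and 650.0, 403 and 375 CPM in glia (log2 fold change -2.79, SE 0.36, FDR = 0.000349). Bcl3, a nuclear cofactor of NF-kappaB, was at 0.285, 2.37 and 5.72 CPM in neurons and 100.0, 72.2 and 46.3 CPM in glia (log2 fold change -4.97, SE 0.76, FDR = 0.000914). The fractions of both were far apart in every pool. The ligand Lif, leukemia inhibitory factor, was at 0.569, 4.97 and 20.0 CPM in neurons and 88.3, 115 and 40.7 CPM in glia (log2 fold change -4.06, SE 1.01, FDR = 0.0143). Osmr, the oncostatin M receptor, was at 7.11, 6.98 and 12.9 CPM in neurons and 98.0, 53.0 and 32.7 CPM in glia (log2 fold change -2.68, SE 0.43, FDR = 0.00127). For both the pools differed in how far the fractions were apart, with replicate 3 the closest. The common receptor Il6st (-1.44) and Stat3 (-1.24) were higher in glia by less. Socs2 (1.43), Socs7 (0.88) and Jak1 (0.81) were higher in neurons, a smaller share than the 13% over all tested genes. The number of this list higher in glia was 8 to 9 without kainate glia replicate 1 or 2 or kainate neurons replicate 1 or 2, and that higher in neurons 1 without kainate glia replicate 1 or 2 or kainate neurons replicate 2 or 3 and 5 without sham glia replicate 1 or 3 or sham neurons replicate 1 or 3. Among these genes the calls of Lif (glia 2, neurons 2), Stat3 (glia 1 or 2, neurons 1 or 2), Socs7 (glia 1 or 2, neurons 2 or 3) and Jak1 (glia 1, 2 or 3, neurons 1, 2 or 3) rested on the kainate library named (FDR 0.0507 to 0.220). Lif, Stat3, Socs7 and Jak1 did not pass without the pairing (FDR 0.0532 to 0.236) and in a robust fit neither did Bcl3 or Lif (FDR 0.0549 to 0.170).

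Of 22 genes of NF-kappaB and TNF signalling 10 were higher in glia (median -0.70). Nfkbia, which encodes the inhibitor of NF-kappaB, was at 20.4, 18.2 and 13.5 CPM in neurons and 294, 79.2 and 58.2 CPM in glia (log2 fold change -2.68, SE 0.35, FDR = 0.000380), and the receptor genes Tnfrsf1a and Tnfrsf12a had log2 fold changes of -4.09 and -2.78. Il1a (-4.76) and Il1b (-2.89) were near 0 CPM in neurons. The subunits Rela (-0.69), Nfkb1 (-0.47) and Rel (-0.61) did not pass. Interferon-stimulated genes were higher in glia in 20 of 24 cases (median -2.10), mostly at low levels. Ifi204 was at 0.783, 0.280 and 0.315 CPM in neurons and 7.21, 3.39 and 4.97 CPM in glia (log2 fold change -3.56, SE 0.45, FDR = 0.000322). The antiviral Mx1 was at 0.213, 1.33 and 1.26 CPM in neurons and 6.15, 4.28 and 9.19 CPM in glia (log2 fold change -2.85, SE 0.54, FDR = 0.00341). Irgm1, a GTPase, was at 4.84, 7.52 and 6.85 CPM in neurons and 44.7, 28.0 and 19.5 CPM in glia (log2 fold change -2.18, SE 0.35, FDR = 0.00112), and none of the 3 overlapped between fractions. Irf9, a part of the complex that turns these genes on, did not pass (-0.60). The interferon count was 13 without kainate glia replicate 1 or kainate neurons replicate 1. Leaving out 1 kainate library ended the call of Il1b (glia 2, neurons 1 or 2), at FDR 0.0521 to 0.0878. A robust fit ended the call of Tnfrsf1a (FDR 0.107). Leaving out the library in brackets brought a call, higher in glia, for Rela (glia 3, neurons 3, sham glia 1 or 3, sham neurons 1 or 3) (FDR 0.0386 to 0.0412).

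Matrix genes went both ways, with 10 of 33 higher in neurons, 12 higher in glia and 11 not called. Without the pairing 6 were called in neurons and 11 in glia. Col4a2 and Col4a1, collagens of basement membranes, were on the neuronal side. Col4a2 was at 622, 693 and 636 CPM in neurons and 20.9, 63.8 and 78.3 CPM in glia (log2 fold change 3.77, SE 0.38, FDR = 0.000174). Col4a1 was at 443, 435 and 534 CPM in neurons and 41.5, 63.0 and 86.9 CPM in glia (log2 fold change 2.94, SE 0.28, FDR = 0.000174), and the neuron libraries were close to one another in both. Both genes sit head to head on the genome, on opposite strands, with 0.982% of the exon bases of Col4a2 shared with other genes. Hapln4 (2.69), a link protein of perineuronal nets, and Col11a1 (1.97) had the same direction. Sparc was at 7.68, 10.5 and 16.8 CPM in neurons and 498, 139.7 and 78.0 CPM in glia (log2 fold change -3.93, SE 0.71, FDR = 0.00245), whereas its relative Sparcl1 was at 656, 449 and 251 CPM in neurons and 563, 160.4 and 88.8 CPM in glia and called in neurons (1.07). The membrane protease Mmp14 (-3.44), the proteoglycan Sdc4 (-3.63) and Col16a1, at 74.3, 86.5 and 109.7 CPM in neurons and 532, 676 and 393 CPM in glia, were higher in glia. Of 23 genes of cholesterol synthesis and transport 11 were higher in glia (median -0.65). Apoe and the cholesterol exporter Abca1 (-3.36) differed most, whereas the synthesis genes Sqle (-1.23) and Hmgcs1 (-1.05) differed less. Cyp46a1, the enzyme by which neurons remove cholesterol, was at 631, 469.9 and 267 CPM in neurons and 53.6, 59.6 and 49.3 CPM in glia (log2 fold change 2.99, SE 0.28, FDR = 0.000174). The cholesterol count in glia was 5 to 7 without kainate glia replicate 1 or 2 or kainate neurons replicate 1 or 2. The calls of Sparcl1 (glia 2 or 3, neurons 2 or 3), Sqle (glia 1) and Hmgcs1 (glia 1 or 2, neurons 1 or 2) were lost without the kainate library named, at FDR 0.0691 to 0.297. In the unpaired fit Sparcl1, Sqle and Hmgcs1 did not pass (FDR 0.147 to 0.581) and in a robust fit neither did Sparc, Mmp14, Sdc4 or Apoe (FDR 0.0900 to 0.174).

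Of 15 heat shock and chaperone genes 5 were higher in glia, among them the inducible Hspa1b, at 39.8, 11.6 and 41.3 CPM in neurons and 268, 94.3 and 87.9 CPM in glia (log2 fold change -2.30, SE 0.44, FDR = 0.00335), its near-identical neighbour Hspa1a (-2.37) and the small heat shock gene Hspb1 (-2.48). Dnaja1 (1.12) and Hsph1 (0.87) were higher in neurons, a share of the list near the 13% over all tested genes. The counts were 2 to 3 without kainate glia replicate 1 or 2 or kainate neurons replicate 2 in glia and 0 to 1 without kainate glia replicate 1, 2 or 3 or kainate neurons replicate 2 or 3 and 4 without sham glia replicate 1 or 3 or sham neurons replicate 1 or 3 in neurons. Cell cycle genes were higher in glia in 10 of 19 cases, a count that was 3 to 6 without kainate glia replicate 1 or 2 or kainate neurons replicate 1 or 2. Cdkn1a, the p21 inhibitor that halts the cycle, was at 25.9, 23.4 and 23 CPM in neurons and 344, 67.4 and 89.2 CPM in glia (log2 fold change -2.38, SE 0.41, FDR = 0.00197), so its highest value was that of glia replicate 1. Ccnd2 (0.99) was higher in neurons. Without the kainate library in brackets the calls of Hspa1a (glia 2), Dnaja1 (glia 2, neurons 2), Hsph1 (glia 1, 2 or 3, neurons 2 or 3) and Ccnd2 (glia 1 or 2, neurons 2) did not stand (FDR 0.0502 to 0.213). Hspa1b, Dnaja1, Hsph1 and Ccnd2 did not pass without the pairing (FDR 0.0737 to 0.320) and in a robust fit neither did Hspa1a (FDR 0.0650).

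Of 17 genes of DNA methylation 2 were higher in neurons, a share near the 13% over all tested genes, and 4 in glia, against 8.99%. The count in neurons was 0 to 1 without kainate glia replicate 1, 2 or 3 or kainate neurons replicate 1, 2 or 3 and 4 without sham glia replicate 1 or 3 or sham neurons replicate 1 or 3, and that in glia 1 without kainate glia replicate 1. Dnmt3a, the writer of new methylation, was at 281, 329 and 298 CPM in neurons and 207, 225 and 141 CPM in glia with no overlap, but at an FDR of 0.0609 it did not pass, and neither did Tet3 (0.69, FDR 0.0681). With only the kainate libraries in the fit both passed (FDR 0.0214 and 0.0208), and Dnmt3a also in a robust fit (0.0493) and by the newer quasi-likelihood method (0.0442). Gadd45b, given above, Gadd45a (-1.17), Dnmt3b (-1.29) and the cytidine deaminase Apobec1 (-2.94) were the 4 higher in glia, and Tet2 (0.69) and Mbd1 (0.86) the 2 higher in neurons. None of 20 ribosomal protein genes was called by edgeR (median 0.04), and 1 had an unadjusted p below 0.05 and 0 passed in DESeq2, against 35.9% and 29.8% of all genes with a value in each test, in either direction. Of 14 tested mitochondrially encoded genes 3 were higher in glia (median -0.79), a count that was 0 to 1 without kainate glia replicate 1 or 2 or kainate neurons replicate 1 or 2 and 5 without sham glia replicate 1 or 3 or sham neurons replicate 1 or 3. Mitochondrial reads made up 0.0171% to 0.0519% of the counts of neuron and 0.0305% to 0.169% of those of glia libraries. In both fractions replicate 1 had the highest share, with at most 0.0194% in the other neuron and 0.0373% in the other glia libraries. Among these genes the calls of Gadd45b (glia 1), Gadd45a (glia 1, neurons 1), Dnmt3b (glia 1 or 2, neurons 2), Tet2 (glia 1, 2 or 3, neurons 1, 2 or 3) and Mbd1 (glia 1, 2 or 3, neurons 2 or 3) rested on the kainate library named (FDR 0.0652 to 0.308). Dropping the pairing ended the calls of Gadd45a, Dnmt3b, Tet2 and Mbd1 (FDR 0.0858 to 0.395). Not called here, Dnmt3a (sham glia 1 or 3, sham neurons 1 or 3) and Tet3 (sham glia 1 or 3, sham neurons 1 or 3) passed as higher in neurons once the library in brackets was left out (FDR 0.0182 to 0.0229).

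**Figure D4:**
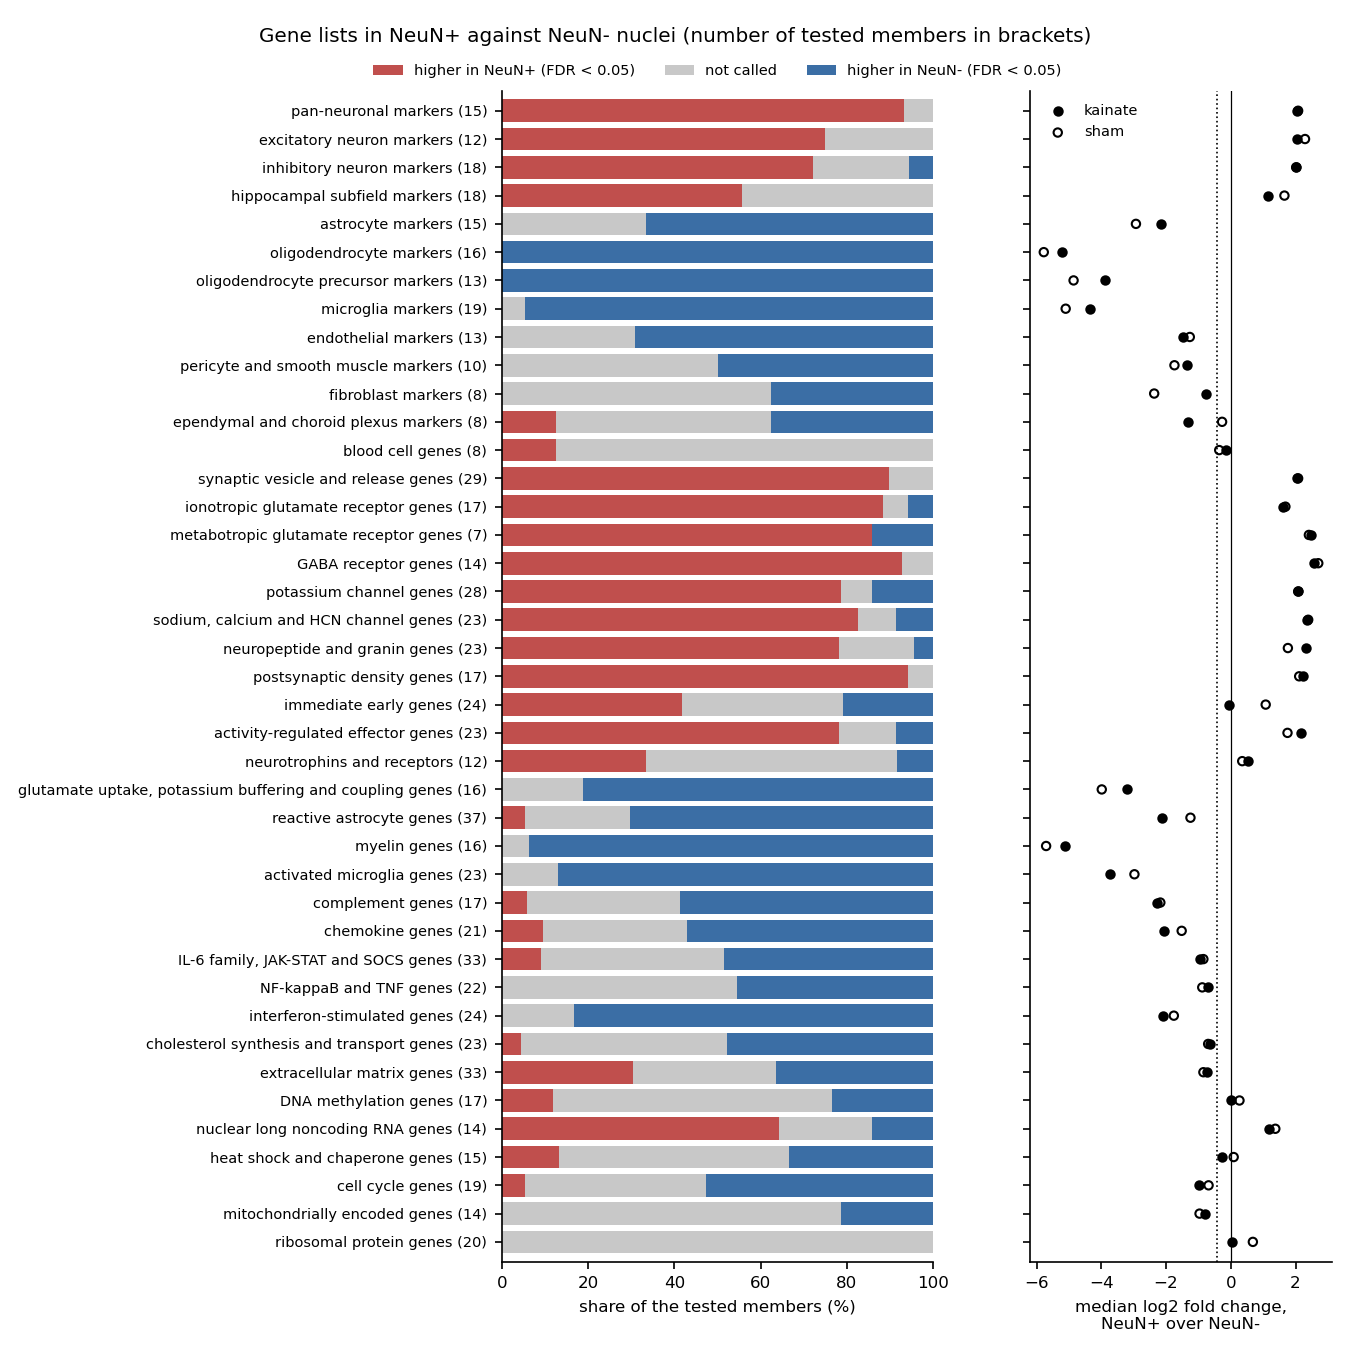
Left, share (%) of the tested members of 41 gene lists that were higher in NeuN+ (red), not called (grey) or higher in NeuN- nuclei (blue) after kainate at an FDR below 0.05. Right, the median log2 fold change of each list after kainate (filled) and in sham mice (open), with the median of all genes after kainate dotted. The oligodendrocyte median of -5.21 is the lowest and the GABA receptor median of 2.56 the highest.

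Most of what separated the fractions after kainate had the same sign in sham mice. Across the 40714 genes the fold changes of both treatments had a Pearson r of 0.740, a description over genes that are not independent, from libraries that the treatments do not share. Of the 5306 genes higher in neurons after kainate, 98.8% were above 0 in sham, and of the 3660 higher in glia 97.7% were below it, against a shared sign in 83.7% of all genes. The test of the difference itself, kainate against sham with 3 and 2 paired pools, called 4 genes (0.00982%).

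Cd1d1, a lipid-presenting relative of the class I histocompatibility molecules, was at 51.4, 83.7 and 81.0 CPM in neurons and 9.60, 12.1 and 13 CPM in glia after kainate. In sham it was at 4.70, 3.47 and 4.45 CPM in neurons and 12.7 and 8.48 CPM in glia. The gene has a close copy, Cd1d2. The fractions stood in opposite order in the treatments, and the log2 difference between the fold changes was 3.79, SE 0.36, FDR = 0.0232. Gipr, the receptor of the gut hormone GIP, was at 80.1, 38.1 and 169.9 CPM in neurons and 27.8, 24.5 and 53.8 CPM in glia after kainate and at 5.84, 5.86 and 6.51 CPM in neurons and 73.7 and 33.2 CPM in glia of sham mice (difference 4.27, SE 0.48, FDR = 0.0325). Col27a1, a fibrillar collagen, was at 133, 289 and 188 CPM in neurons and 53.9, 86.2 and 68.2 CPM in glia after kainate and at 5.91, 19.1 and 18.6 CPM in neurons and 87.2 and 76.9 CPM in glia of sham mice (difference 4.43, SE 0.51, FDR = 0.0325). Within each pool that gave both fractions the NeuN+ library of both genes was the lower one in sham and the higher one after kainate. Cebpd, a transcription factor of the acute phase, did the reverse, with 58.8, 43.0 and 39.0 CPM in neurons and 293, 166 and 122 CPM in glia after kainate and 78.4, 44.3 and 43.5 CPM in neurons and 34.3 and 20.5 CPM in glia of sham mice (difference -3.11, SE 0.34, FDR = 0.0325). Among genes with at least 10 CPM and no predicted or clone-based name, the next by p in each direction did not pass. They were Sdc1, the heparan sulfate proteoglycan syndecan 1 (3.38, SE 0.48, FDR = 0.156), and the GTPase activator Rasa4 (2.43, SE 0.35, FDR = 0.156) with a larger neuron excess after kainate, and Ier5l (-2.15, SE 0.33, FDR = 0.242), Egr1 (-2.18, SE 0.37, FDR = 0.317), Serpina3n (-2.55, SE 0.43, FDR = 0.317) and Ccl2 (-2.80, SE 0.47, FDR = 0.317) with a larger glia excess. None of the 4 genes was called without the pairing or without sham glia replicate 1 or sham neurons replicate 1 (FDR up to 1.00). Cd1d1 was also lost without kainate neurons replicate 2 (FDR 0.0541). Col27a1 was also lost without kainate neurons replicate 2 (FDR 0.0541). Cebpd was also lost without kainate glia replicate 2, kainate neurons replicate 2, sham glia replicate 3 or sham neurons replicate 3 (FDR 0.0921 to 0.125).

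**Figure D5:**
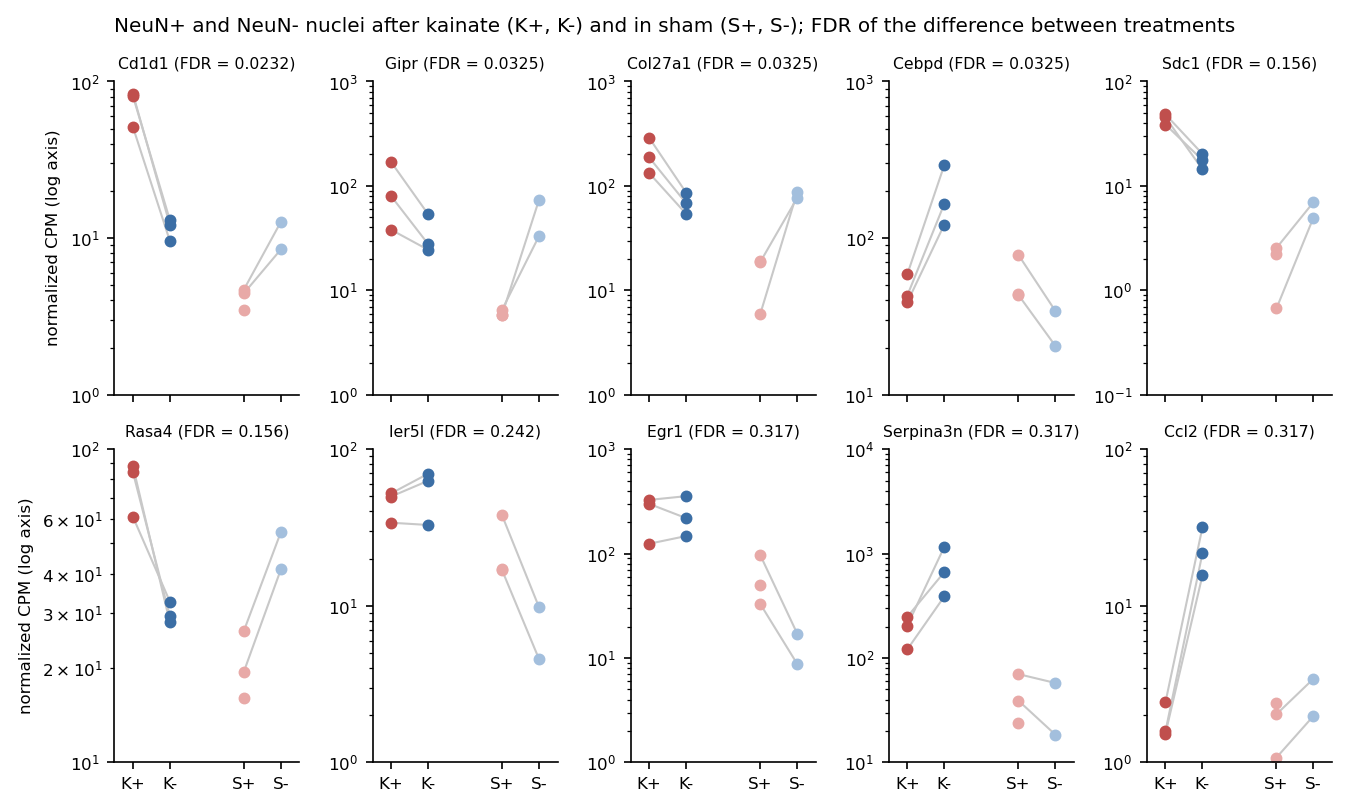
Normalized CPM (log axis) of the 10 genes with the smallest p for a difference between treatments, in NeuN+ and NeuN- nuclei after kainate (K+, K-) and in sham mice (S+, S-), with grey lines joining the fractions of a pool and the FDR of the difference above each panel. Cd1d1, Gipr, Col27a1 and Sdc1 fall from K+ to K- and rise from S+ to S-, and Cebpd does the opposite.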

How the data were processed

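Nuclei of pooled left hippocampi were sorted by NeuN, and polyadenylated RNA was amplified with the SMART-Seq v4 kit, which carries no molecular identifiers. A protocol label names the right hippocampus, whereas the sample titles and the study's methods give the left, which is used here. Per the labels and the study's methods, the authors trimmed reads with Trim Galore 0.4.3, aligned them to mm10 with Rsubread and assigned them to GENCODE M16 genes with featureCounts. The deposited values are raw counts per gene, with no normalization. Whether counting used strand is not given in the sources used here, so genes overlapping on opposite strands cannot be told apart. Which sequencer ran which library is not given either.

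Counts were analysed with edgeR 4.0.16 in R 4.3.3. Of 53379 genes, 105 without a symbol were dropped, filterByExpr (minimum count 10, minimum total 15) kept 40714, and TMM factors were applied. All 11 mRNAseq libraries entered 1 quasi-likelihood model with the pool as a block, the fraction effect within each treatment, and the difference of these effects between treatments. P-values were adjusted by the Benjamini-Hochberg method over all tested genes. The pairing comes from the design, since both fractions of a pool are the same animals. Deviations from the group means of same-numbered kainate libraries correlated at 0.571, 0.240 and 0.506. Those of NeuN+ and NeuN- libraries with unlike numbers correlated at -0.505 to 0.166. The main design followed the study in its tool and not in its FDR limit, which was 0.25. The gene lists and the compared samples were chosen with earlier results of these data known, and the lists share genes. Named genes were the cell type markers, the 10 leading genes in each direction by p (fractions not overlapping, at least 10 CPM, no predicted or clone-based name), the 5 leading differences in each direction, called members of each list, and other members where a group was described. Results for some of these genes are not reported here.

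Gene positions and types came from GENCODE M21 on GRCm38, the build of the counts, and promoter windows from RefSeq on GRCm38.p6. Alternatives were fits with DESeq2 1.42.0, other filters and scalings, no block, a low-input covariate, and each library left out. The fit was tested on simulated data for the fraction effect after kainate only. It recovered the folds that had been set, but with few genes changed more of its calls were false than the FDR allows. The methylation samples were not used here. With reads not tied to molecules, precision is judged from the spread between pools.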

Additional observations from a re-analysis of the deposited data

Results flagged for a closer look

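For 4 genes the difference between the fractions itself differed between kainate and sham mice, by edgeR's quasi-likelihood test of the difference. The log2 fold change of NeuN+ over NeuN- was higher after kainate by 3.79 for Cd1d1, 4.27 for Gipr and 4.43 for Col27a1, and for Cebpd the difference was -3.11. The underlying fold changes were 2.62 after kainate and -1.18 in sham for Cd1d1, 1.28 and -2.99 for Gipr, 1.50 and -2.93 for Col27a1, and -1.97 and 1.14 for Cebpd. In all 3 kainate pools and both sham pools each gene had the sign of its group. The sham side rests on 2 pools, 1 of whose NeuN- libraries came from about 0.05 ng of RNA. Without the pairing the FDR was 0.0705 for Cd1d1, 0.534 for Gipr, 0.534 for Col27a1 and 1.00 for Cebpd, and with a filter of 1 CPM in 3 libraries or the newer quasi-likelihood method it lay between 0.0608 and 0.233 over the 4 genes. On simulated counts with few changed genes the share of false calls was above the nominal FDR for the fraction effect after kainate. The test of the difference was not scored on simulated counts, and so few calls are to be read with these limits.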

How the results depend on the processing

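No called gene named in the text changed direction under any setting tried, whereas the number of calls varied. Without the replicate block that pairs the fractions, 2465 genes were higher in NeuN+, 1643 higher in NeuN- and 0 differed between treatments, and 4105 of the 8966 calls remained. Leaving out 1 library at a time gave 2851 to 6328, 1665 to 5540 and 0 to 29. At an FDR below 0.25 the counts were 8706, 11366 and 9. The genes higher in NeuN- came to 2192 with low input as a covariate beside the block and 6620 with the newer quasi-likelihood method. The genes that differed between treatments came to 0 with a 1 CPM filter in 3 libraries, 0 with the newer method, 57 with the DESeq2 Wald test, 31 with no filter on low counts and 11 without both low-input libraries. At an unadjusted p below 0.05 edgeR gave 1086 such genes as reported, 529 to 4270 with 1 library left out, 370 without the block, 1113 with that CPM limit and 1508 with the newer method. Other settings moved the counts at an FDR below 0.05 by less than 1.5 times. Of 173 called genes named in the text, 116 stayed called in all 24 alternatives. Among genes not called, signs turned for Egr1 (-0.10 with the 1 CPM filter, -0.18 with the covariate, -0.18 without both low-input libraries) and Omg (-0.0441 without the block). With 1 library left out, Egr1 ran from -0.18 to 0.19, Junb from -0.54 to 0.23, Omg from -0.0523 to 0.58 and Slc1a2 from -1.10 to 0.29 on the log2 scale. The causes were not tested. The 11 libraries held 12058875 reads or more, and the sham side of the difference rests on 2 pools with both fractions.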
